A study of Mus musculus with 24 samples.

Results

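Retinoid metabolism and receptor genes were followed in colon RNA of mice fed a low-fat diet (LFD) or a high-fat diet (HFD). The set held 9 genes of 22911 named genes on the array: the retinol dehydrogenases Rdh16 and Rdh16f2, the retinal reductase Dhrs3, the retinal dehydrogenases Aldh1a1 and Aldh1a2, the retinol binding protein gene Rbp2, the retinoic acid receptors Rara and Rarb, and Cyp26b1, which encodes an enzyme of retinoic acid breakdown. They were read by 13 of 56605 probes, matched through the accession of each probe. The 9 genes were selected on their log2 signal over the 24 arrays, with the diet comparisons known, so their differences between diets are a description and carry no test.

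Vitamin A reaches cells as retinol, which retinol dehydrogenases oxidize to retinal in a reversible step. Retinal dehydrogenases of the Aldh1a family then make retinoic acid, the ligand of nuclear receptors that bind DNA with a retinoid X receptor partner, while Cyp26 enzymes degrade it and Dhrs3 returns retinal to retinol. In the gut, retinoic acid made by epithelial cells, stromal cells and dendritic cells is known for its part in epithelial differentiation and in the homing of lymphocytes.

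C57BL/6J mice, bought at 7 weeks of age, were sham-operated males (M), sham-operated females (F) or ovariectomized females, written F(OVX) or OVX females. Each was fed either diet, which gave 6 groups such as M + LFD and F(OVX) + HFD, with 4 arrays a group and 1 array a sample. The diets held 10 or 45 kcal% fat and were given for 14 weeks, and every group also received azoxymethane (10 mg/kg), a colon carcinogen, and 3 cycles of 1.5% dextran sulfate sodium, which inflames the colon, so no untreated colon was measured. The methods name 5 animals per group, taken near the average body weight of the group, against 4 per group in the labels. The tissue was, per the methods, what remained of the distal colon after a piece was fixed for histology, and they do not state how much tumor a sample held. Males, females and OVX females each lay on a slide of their own, so sex or surgery and slide cannot be told apart, and LFD lay in row 1 and HFD in row 2 of each slide, so diet and row cannot be told apart either.

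Signal is given as log2 of the background-subtracted intensity after quantile normalization, for the brightest probe of each gene unless another is named. The scanner software flagged 40.5% to 61.9% of probes as well above background, that is, clearly brighter than their surroundings, and the 75th percentile of signal ran from 124.6 to 668.9 intensity units, lowest in F(OVX) + LFD replicate 3. The 11 fixed markers of colon epithelium, among them Epcam, Cdx1 and Muc2, were well above background on all 24 arrays. Of the M + LFD samples, 3 stood apart. Hoxb13, a homeobox gene of the distal colon, read 2.18 and 5.04 in M + LFD replicates 1 and 2 and 12.58 to 14.79 elsewhere, and the bile acid transporter gene Slc10a2, a marker of the ileum, read 9.37 and 10.88 there and at most 8.03 elsewhere, so these 2 samples went against the distal colon that the methods name. The pancreatic enzyme genes Cela2a, Cpa1, Pnlip and Prss2 read 16.84, 16.05, 14.55 and 14.99 in M + LFD replicate 3 and at most 6.01, 4.47, 3.06 and 3.26 on the other arrays. Values for males are therefore also given without these samples, a choice made after the data were seen. In tissue RNA, fewer cells of a type and less RNA per cell cannot be told apart.

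Promoter sequence was examined because retinoic acid receptors bind direct repeats, and because Rdh16 and Rdh16f2 moved together on the arrays. RefSeq windows on GRCm38.p6, 250 bases before to 50 bases after a transcript start, were found for all 9 genes, 15 windows in all, on chromosomes 4 (Dhrs3), 6 (Cyp26b1), 9 (Aldh1a2 and Rbp2), 10 (Rdh16 and Rdh16f2), 11 (Rara), 14 (Rarb) and 19 (Aldh1a1). Both strands were searched for the half-site A or G, G, G or T, then TCA, repeated in the same direction with 1, 2 or 5 bases between the copies. Of the 15 windows, the 1 of Rarb held a match, a repeat spaced by 5 bases from position -53 to -37 relative to the start, and none of the others did. Among 32851 windows of all genes, 0.222%, 0.268% and 0.0974% held a repeat spaced by 1, 2 and 5 bases. The 100 bases before each start are shown for Rarb, with the repeat in capitals, at chr14:16575477-16575576 on the minus strand, and for Rdh16 at chr10:127801053-127801152 and Rdh16f2 at chr10:127866376-127866475, both on the plus strand, with capitals where the pair was not identical in a global alignment.
Rarb: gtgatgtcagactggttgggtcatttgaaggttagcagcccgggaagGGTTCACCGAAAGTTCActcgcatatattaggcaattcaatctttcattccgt
Rdh16: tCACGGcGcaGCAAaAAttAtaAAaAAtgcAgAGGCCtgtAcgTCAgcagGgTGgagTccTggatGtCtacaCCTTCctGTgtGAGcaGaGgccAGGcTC
Rdh16f2: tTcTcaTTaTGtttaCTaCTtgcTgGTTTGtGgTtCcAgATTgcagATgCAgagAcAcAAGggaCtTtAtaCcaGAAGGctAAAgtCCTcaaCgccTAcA
In this alignment 49 of 110 columns were identical between Rdh16 and Rdh16f2 (44.5%), and over 250 bases the share was 45.7%. Between Rdh16 and its neighbors the share over 250 bases was 57.4% for Rdh9, 44.5% for Rdh1, and 46.2% and 48.1% for the windows of Rdh7. A match of letters is a description and not a bound site.

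Rdh16 encodes a microsomal enzyme that oxidizes retinol and hydroxysteroids. In M + LFD it read 7.47, 6.80, 6.98 and 8.60 in replicates 1 to 4, and in M + HFD 8.88, 9.46, 8.11 and 9.48. Replicate 4 of M + LFD lay inside the HFD range, so the diets overlapped in males. The mean was 7.46 ± 0.81 (SD, n = 4) on LFD and 8.98 ± 0.64 (n = 4) on HFD, a difference of 1.52 on the log2 scale or 2.86-fold. In females the direction of the means was the opposite, with 7.82, 7.59, 8.49 and 8.22 in F + LFD and 6.92, 7.52, 8.72 and 6.94 in F + HFD. OVX females read 8.34, 9.55, 6.69 and 8.60 on LFD and 7.98, 6.28, 7.33 and 7.68 on HFD. The difference of HFD minus LFD was thus -0.51 for females and -0.97 for OVX females, both with overlapping diets. Single arrays moved both. The OVX difference ran from -1.51 without F(OVX) + LFD replicate 3, the dimmest array of the series, to -0.55 without F(OVX) + LFD replicate 2 and -0.63 without F(OVX) + HFD replicate 2. The female difference ran from -0.90 without F + HFD replicate 3 to -0.30 and -0.31 without F + HFD replicates 1 and 4.

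Rdh16f2, its family member, was the 1 gene of the 9 whose diets did not overlap, and it did so in males. M + LFD read 3.90, 4.07, 4.41 and 6.43, and M + HFD 6.67, 7.10, 6.62 and 7.16. The highest LFD sample lay just under the lowest HFD sample, and replicate 3 of M + LFD was not well above background. The means were 4.70 ± 1.17 and 6.89 ± 0.28 (SD, n = 4 each), a difference of 2.19 or 4.56-fold. Of all 20516 genes that passed the filter in males, 2.6% had diets that did not overlap, in either direction, and since the 9 genes were chosen with this comparison known nothing is read from the 1 of 9. In females, where 1.9% of 22085 genes were separated, and in OVX females, where 2.3% of 19211 were, no gene of the 9 was. F + LFD read 5.47, 4.67, 6.04 and 5.88 and F + HFD 5.48, 5.10, 7.10 and 3.75, a difference of -0.16 with the HFD samples spread on both sides of the LFD range. F(OVX) + LFD read 6.13, 6.69, 2.98 and 6.54 and F(OVX) + HFD 6.24, 4.87, 5.81 and 6.07, a difference of 0.16. Without the dim F(OVX) + LFD replicate 3 the OVX difference turned to -0.70.

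**Figure D1:**
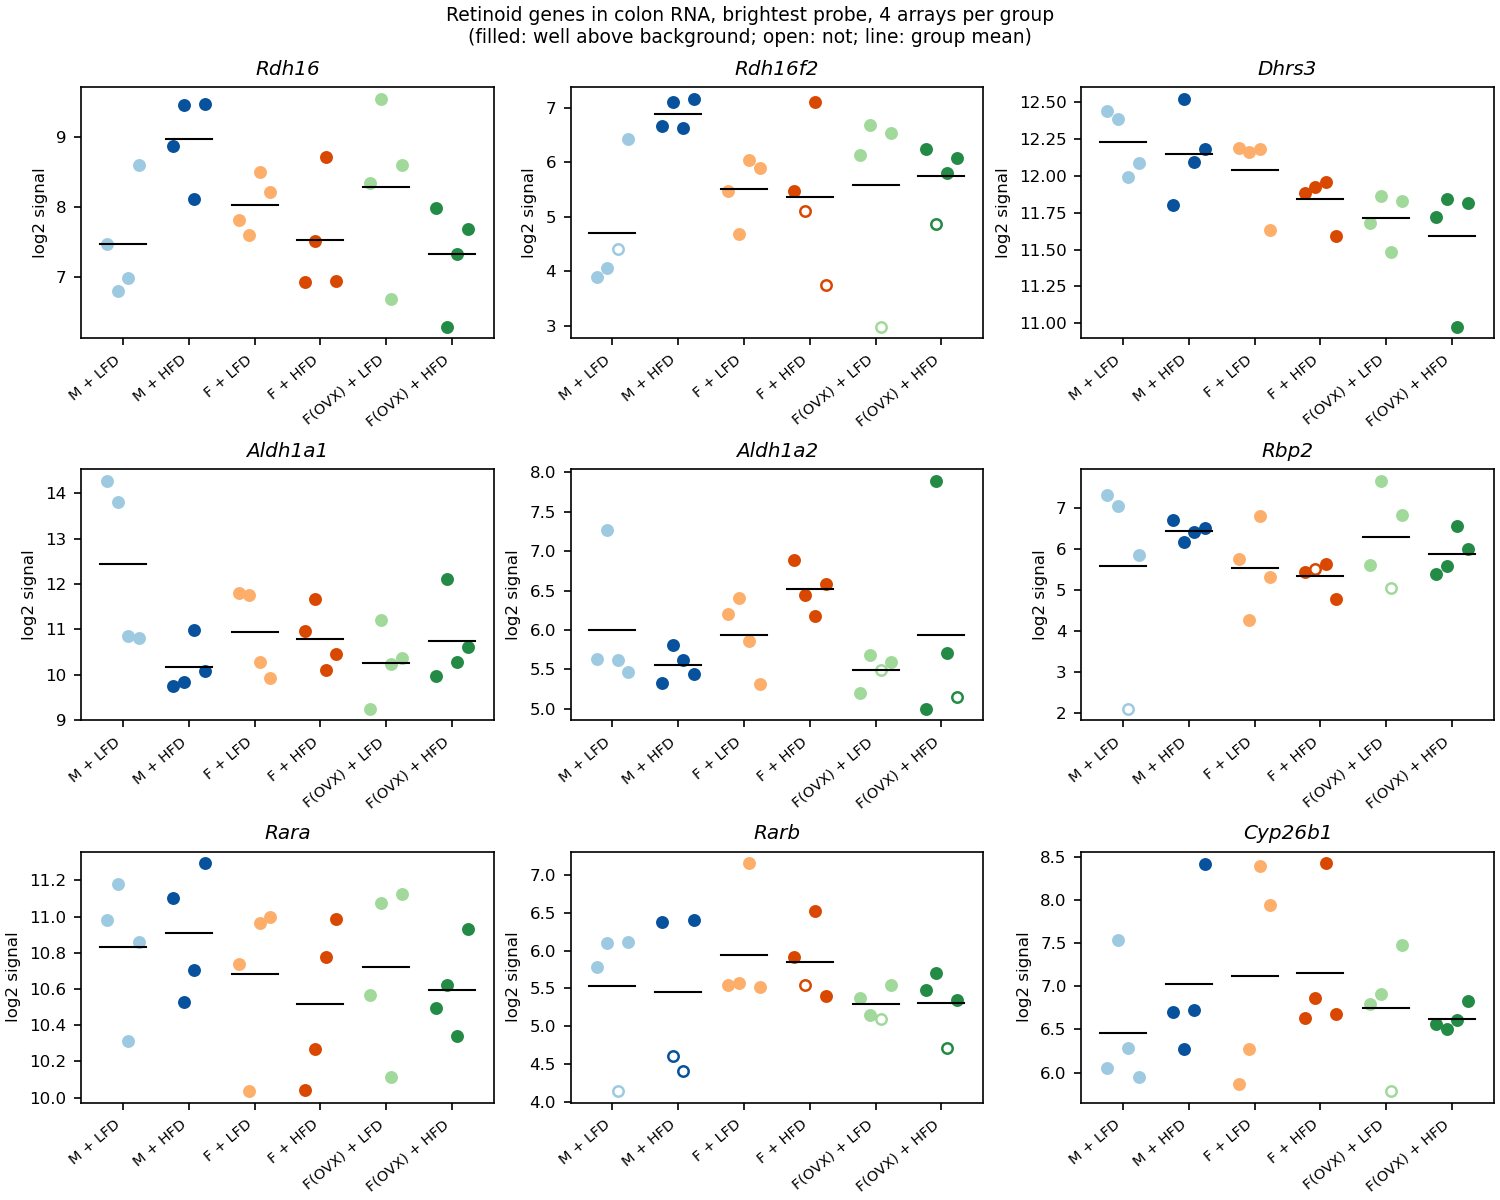
Log2 signal (y axis) of the brightest probe of each of the 9 genes in the 6 groups (x axis), with a point per array in replicate order from left to right, filled where well above background and open where not, and a line at the group mean of 4 arrays. The M + HFD samples of Rdh16f2 sit between 6.62 and 7.16, above all M + LFD samples, and 2 M + LFD samples of Aldh1a1 sit at 13.81 and 14.27, above every other array.

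The male difference of both genes was smaller without the M + LFD samples that stood apart. Without replicates 1 and 2 it was 1.19 for Rdh16 and 1.47 for Rdh16f2. Without replicates 1, 2 and 3, which left M + LFD replicate 4 alone against 4 HFD samples, it was 0.38 and 0.46. That replicate 4 was the highest LFD sample for both genes, and leaving it out instead gave 1.90 and 2.76. No single array left out brought the differences below 1.30 and 1.92.

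Of the 36 pairs among the 9 genes, Rdh16 and Rdh16f2 had the highest correlation over the 24 arrays (Pearson r = 0.84, Spearman rho = 0.90). It was 0.87 for deviations from the group means, 0.87 without the 2 arrays farthest from the median of Rdh16 and 0.83 over 21 arrays without M + LFD replicates 1 to 3. These arrays share slides and a normalization, and the coding sequences of the family are alike, so reads of one probe by the RNA of the other gene cannot be told apart here from shared expression. Both genes lie in a row of short-chain dehydrogenase genes on chromosome 10, in the order Rdh1, Rdh9, Rdh16, the pseudogene Rdh18-ps, Rdh19, Rdh16f2 and, after a noncoding gene, Rdh7. The neighbors did not all follow them. Against Rdh16f2, r was 0.73 for Rdh18-ps, 0.36 for Rdh9 and -0.75 for Rdh1, which oxidizes retinol and was well above background on 18 arrays, and the last was -0.72 over the 21 arrays. Against Rdh16, r was 0.66 for Rdh18-ps, 0.59 for Rdh9 and -0.62 for Rdh1, and 0.66, 0.66 and -0.66 over the 21 arrays. Rdh19 and Rdh7 were each well above background on 3 arrays.

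**Figure D2:**
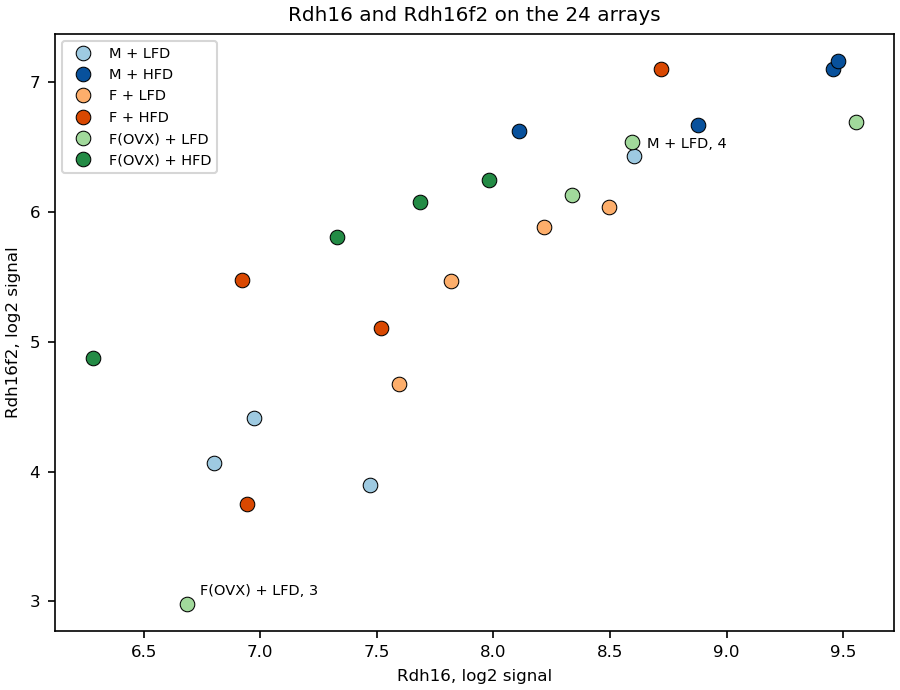
Log2 signal of Rdh16 (x axis) against Rdh16f2 (y axis) on the 24 arrays, colored by group, with r = 0.84. M + LFD replicate 4 lies near the M + HFD samples, and F(OVX) + LFD replicate 3 is the lowest for Rdh16f2 at 2.98.

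Rdh16 and Rdh16f2 also moved with or against single markers of gut position or epithelium, which the whole marker lists bore out only in part. Hoxd13, expressed toward the distal end, correlated with Rdh16 at r = 0.72 (rho = 0.69, within groups 0.68) and with Rdh16f2 at r = 0.69 (rho = 0.73, within groups 0.65) over 24 arrays, and Cdx2, a homeobox gene of intestinal epithelium, at -0.69 and -0.64. Without M + LFD replicates 1 to 3 the values for Hoxd13 were 0.70 and 0.61. The list of 6 Hox genes gave 0.65 and 0.64 over 24 arrays, and Hoxb13 0.35 and 0.50 (within groups 0.29 and 0.41). The 10 absorptive small intestine markers gave -0.13 and -0.28, and 0.37 and 0.11 over the 21 arrays. The 11 colon epithelium markers, Cdx2 among them, gave -0.15 and -0.08. Hoxd13 read 2.07, 2.11, 5.08 and 6.46 in M + LFD and 11.38, 8.53, 5.35 and 9.49 in M + HFD, so it moved with diet in males. In OVX females it ran the other way, with 4.34, 10.87, 4.29 and 10.07 on LFD and 4.95, 4.93, 4.29 and 5.73 on HFD. The mean of Rdh16 did so too, while that of Rdh16f2 was higher on HFD by 0.16. In females the mean of Hoxd13 was higher on HFD by 1.51, whereas Rdh16 and Rdh16f2 were lower, at -0.51 and -0.16. Of the 6 Hox genes of this list, 3 were tested in males, and Hoxd13 was called higher on HFD at the thresholds given below. The summed Hox signal ran from 6.32 to 13.72 in M + LFD and from 13.41 to 14.97 in M + HFD. With the mean Hox signal of each array as a covariate the male difference was 1.003 for Rdh16 and 1.43 for Rdh16f2, and the OVX difference was -0.08 for Rdh16 and 1.26 for Rdh16f2. The part of position in these differences was not tested, and Hoxd13 and Cdx2 were singled out of the marker lists after their values were seen.

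Dhrs3, the retinal reductase, is itself known as a gene induced by retinoic acid, and it was the steadiest enzyme of the set, with 10.98 to 12.53 over all 24 arrays. Its group means were highest in males, at 12.23 ± 0.22 on LFD and 12.15 ± 0.30 on HFD (SD, n = 4 each). Females followed at 12.04 ± 0.27 and 11.84 ± 0.17, and OVX females were lowest at 11.71 ± 0.17 and 11.59 ± 0.41. Each neighboring pair in this order differed by less than the larger of its SDs, and the order is also that of the 3 slides. The HFD mean differed from the LFD mean by -0.08 (males), -0.20 (females) and -0.12 (OVX females). A second probe of Dhrs3, also well above background on all 24 arrays, gave -0.07, -0.28 and 0.11, so the probes disagreed in sign in OVX females, and without F(OVX) + HFD replicate 3 the first probe gave 0.08 there.

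Aldh1a1 makes retinoic acid from retinal and is a major retinal dehydrogenase of epithelia. Its mean was lower on HFD in males, by 2.27 on the log2 scale (4.82-fold), and this came from a pair of samples. M + LFD read 14.27, 13.81, 10.84 and 10.79, and M + HFD 9.74, 9.84, 10.97 and 10.09. Replicates 1 and 2 of M + LFD, those nearly without Hoxb13, lay above every other array, whereas replicates 3 and 4 lay within the HFD range. The means were 12.43 ± 1.87 and 10.16 ± 0.56 (SD, n = 4 each). Without the pair the difference was -0.66, with replicate 3 left out as well -0.63, and with the Hox covariate -0.50.

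In the other groups Aldh1a1 stayed between 9.24 and 12.10. F + LFD read 11.79, 11.75, 10.28 and 9.92 and F + HFD 10.95, 11.66, 10.10 and 10.45, a difference of -0.14. F(OVX) + LFD read 9.24, 11.20, 10.22 and 10.37 and F(OVX) + HFD 9.96, 12.10, 10.27 and 10.60, a difference of 0.47, of which 0.02 was left without F(OVX) + HFD replicate 2. The diets overlapped in all 3 comparisons.

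The arrays fall into 2 clusters of Hoxb13, and within the larger, the 22 arrays without M + LFD replicates 1 and 2, Aldh1a1 ran against Hoxb13 with r = -0.69. The whole list of 6 Hox genes gave -0.31 and Hoxd13 -0.29 over the same arrays, so Hoxb13 was singled out after its values were seen. Over these 22 arrays r was 0.54 with Isx, an intestinal homeobox gene that represses vitamin A uptake genes. It was 0.20 with the mean log2 signal of the 10 absorptive small intestine markers, in which dim and bright markers count alike. Of those 10 markers 6 and 10 were well above background in M + LFD replicates 1 and 2. On the other arrays the count ran from 3 to 7, so the count of replicate 1 did not stand out. The log2 of their summed signal, to which bright markers add most, was 16.03 and 16.25 in these replicates and at most 15.43 elsewhere. The part of these markers in the male difference of Aldh1a1 was not tested beyond the values without M + LFD replicates 1 and 2.

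**Figure D3:**
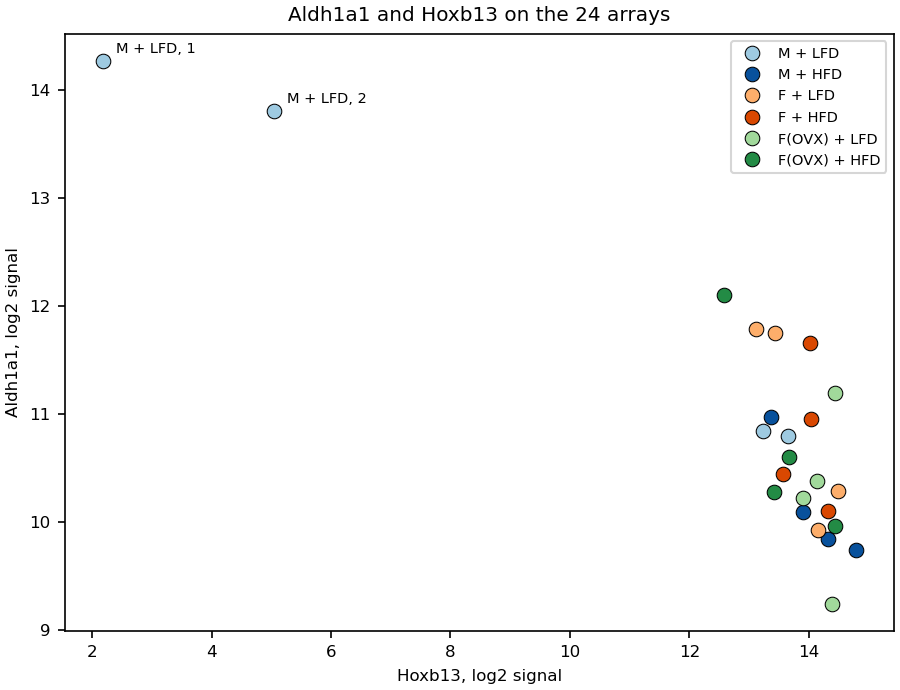
Log2 signal of Hoxb13 (x axis) against Aldh1a1 (y axis) on the 24 arrays, colored by group. M + LFD replicates 1 and 2 lie far to the left and highest, and the other arrays lie between 12.58 and 14.79 on the x axis, with r = -0.69 among them.

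Aldh1a2, a retinal dehydrogenase best known from stromal, mesothelial and dendritic cells, was dim, and was well above background on 22 arrays. M + LFD read 5.64, 7.27, 5.61 and 5.46 and M + HFD 5.33, 5.81, 5.62 and 5.44. The male difference of -0.45 rested on M + LFD replicate 2 and was -0.02 without it. In F + LFD it read 6.20, 6.40, 5.86 and 5.31 and in F + HFD 6.89, 6.44, 6.18 and 6.58, a difference of 0.58 with overlapping diets. F(OVX) + LFD read 5.19, 5.68, 5.49 and 5.59 and F(OVX) + HFD 4.998, 7.89, 5.71 and 5.14, a difference of 0.44 that turned to -0.21 without F(OVX) + HFD replicate 2. The highest sample of each of these comparisons, M + LFD replicate 2, F + HFD replicate 1 and F(OVX) + HFD replicate 2, was thus in a different diet in males than in the other groups. Aldh1a2 and Aldh1a1 correlated at r = 0.54 (rho = 0.62, within groups 0.62), and at 0.69 over the 21 arrays, while Aldh1a2 ran against Rdh16 at r = -0.55.

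Rbp2 encodes a cellular retinol binding protein of absorptive enterocytes, chiefly of the small intestine. M + LFD read 7.31, 7.04, 2.10 and 5.86 and M + HFD 6.71, 6.16, 6.41 and 6.50. The lowest value is that of replicate 3, the sample with pancreatic enzyme RNA, where the probe was not well above background. The male difference of 0.87 (1.82-fold) turned to -0.29 without replicate 3, was 2.46 without replicates 1 and 2 and 0.59 without all 3. Females read 5.75, 4.28, 6.79 and 5.32 on LFD and 5.44, 5.50, 5.63 and 4.78 on HFD, and OVX females 5.60, 7.66, 5.04 and 6.82 on LFD and 5.40, 5.59, 6.55 and 5.99 on HFD. These differences were -0.20 and -0.40, and the diets overlapped in both. The correlation of Rbp2 with the 5 pancreatic acinar markers was -0.31 over the 21 arrays without M + LFD replicates 1 to 3. Among the 9 genes Rbp2 was most like Rara (r = 0.59, rho = 0.64, within groups 0.59).

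Rara, the receptor expressed in most tissues, had the narrowest range of the 9 genes, although Dhrs3 had smaller SDs in most groups. It read 10.04 to 11.30 over the 24 arrays and was well above background on all of them. Between diets it moved by 0.08 (males), -0.17 (females) and -0.12 (OVX females), and a second probe gave 0.28, -0.14 and -0.12. Each of these was smaller than the larger SD of its groups on the first probe, where the SDs ran from 0.25 to 0.48.

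Rarb, a receptor gene known as a direct target of retinoic acid, was near background, with its brightest probe well above it on 18 of 24 arrays, a second on 11 and the remaining probe on 0. M + LFD read 5.78, 6.10, 4.14 and 6.11 and M + HFD 6.38, 4.61, 4.41 and 6.40. All samples under 5 here were not well above background, 1 on LFD and 2 on HFD. F + LFD read 5.54, 5.57, 7.16 and 5.51 and F + HFD 5.91, 5.54, 6.52 and 5.40. Replicate 3 was the highest sample on both diets in females, and these arrays were also the pair with low Cdx2, at 9.52 and 9.16. They also had the highest mean log2 signal of their groups for fibroblast (12.08 and 12.01), smooth muscle (13.85 and 13.36) and macrophage markers (11.31 and 10.43). Over 24 arrays r of Rarb was -0.48 with Cdx2 (rho = -0.22), 0.56 with smooth muscle (rho = 0.52) and 0.55 with fibroblast markers (rho = 0.46). F(OVX) + LFD read 5.38, 5.14, 5.09 and 5.55 and F(OVX) + HFD 5.48, 5.70, 4.72 and 5.35. The differences of the brightest probe were -0.08, -0.10 and 0.02, each smaller than the SD within the groups. The second probe gave -0.37, 0.00 and 0.70, and in OVX females it was well above background on 1 array of each diet. The gene did not pass the filter in males or in OVX females, and its male difference ran from -0.73 with the Hox covariate to 0.32 without M + LFD replicates 1 and 2. This is the gene with the promoter repeat shown above.

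Cyp26b1 encodes a cytochrome P450 that clears retinoic acid. M + LFD read 6.05, 7.53, 6.28 and 5.95 and M + HFD 6.70, 6.28, 6.72 and 8.42, a difference of 0.58 that was 0.11 without M + HFD replicate 4. F + LFD read 5.86, 6.28, 8.40 and 7.94 and F + HFD 6.64, 6.86, 8.43 and 6.68, a difference of 0.03. F(OVX) + LFD read 6.79, 6.91, 5.78 and 7.49 and F(OVX) + HFD 6.56, 6.50, 6.61 and 6.83, a difference of -0.12. The diets overlapped in all 3 comparisons. Without the dim F(OVX) + LFD replicate 3 the OVX difference was -0.44, and in females it ran from -0.39 to 0.46 as single arrays were left out. Over the 24 arrays Cyp26b1 moved with the 5 macrophage markers (r = 0.70, rho = 0.53, within groups 0.73). For the 7 fibroblast markers r was 0.66 (rho = 0.43, within groups 0.62), and for Rarb 0.55 (rho = 0.34). It also ran against Cdx2 (r = -0.68, rho = -0.60) and with the list of 6 Hox genes (r = 0.53, rho = 0.48). The summed macrophage signal ran from 11.74 to 13.998 in F + LFD and from 11.50 to 12.62 in M + LFD. The part of cell types or position in the level of Cyp26b1 was not tested.

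**Figure D4:**
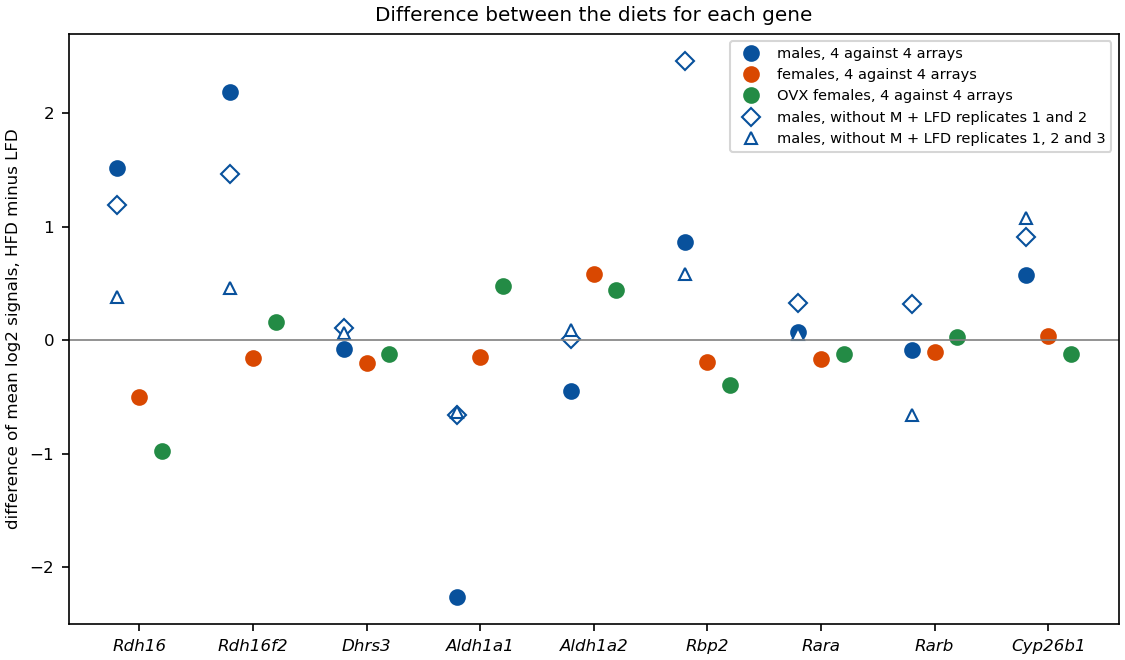
Difference of mean log2 signal, HFD minus LFD (y axis), for each of the 9 genes (x axis) in males, females and OVX females, with open symbols for males without M + LFD replicates 1 and 2 or 1 to 3. Rdh16f2 is at 2.19 and Aldh1a1 at -2.27 in males with all arrays, and at 0.46 and -0.63 without the 3 samples.

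Set side by side, the higher mean was on HFD for 5 of the 9 genes when males were compared, for 2 when females were and for 4 in OVX females. The median difference of the 9, with those that did not pass the filter, was 0.08, -0.16 and -0.12. Over all genes that passed it the median was 0.01, -0.00 and 0.01. Of the 9 genes 8, 9 and 6 passed the filter, which kept a gene if all 4 arrays of at least 1 diet were above background by the flag. The set did not move as a block, since the means of Rdh16 and Aldh1a1 differed in opposite directions in males.

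Each gene was set against 14409 others to find those most like it over the 24 arrays, as a description with no test. Rdh16 was nearest to the amino acid transporter gene Slc36a1 (r = 0.91) and the creatine transporter gene Slc6a8 (r = 0.90), and Rdh16f2 to Mbd1 (r = 0.89) and Mgat4a (r = 0.88). Aldh1a1 was nearest to Hkdc1 (r = 0.92) and Mfap3l (r = 0.90), which fell to 0.78 and 0.70 over the 22 arrays without M + LFD replicates 1 and 2. Aldh1a2 was nearest to Stum (r = 0.79) and Dnph1 (r = 0.78), and Dhrs3 to Tmem245 (r = 0.79) and 1700020D05Rik (r = 0.74), with 0.61 and 0.49 within groups. Rbp2 was nearest to the aldo-keto reductase gene Akr1b7 (r = 0.84, and 0.58 over the 21 arrays) and to Rhoc (r = 0.83). Rara was nearest to Kifc3 (r = 0.93) and Tacc2 (r = 0.88). Rarb was nearest to Stmn2 and Pfn2 (r = 0.80 and 0.80), the first a neuronal gene, and Cyp26b1 to Glb1l and Gprc5b (r = 0.85 and 0.85).

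The other genes of the pathway were tested, but their list too was chosen with earlier results of these data known. Nothing is therefore read from a called share above that of all genes. A list of 59 genes of retinoid uptake, conversion, breakdown and response was used, of which 57 were on the array. The thresholds of the study were used to call a gene, a 1.5-fold difference or more with a limma p below 0.05 before adjustment. No gene on the whole array passed a Benjamini-Hochberg adjusted p of 0.05 in limma in any comparison below, whereas 1251, 643 and 709 genes had an unadjusted p under 0.05 in males, females and OVX females. The methods' t-test gave 0 adjusted calls as well, with 489, 125 and 209 genes at the thresholds.

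In males 3 of 38 tested pathway genes were called higher on HFD (7.89%, against 2.5% of all genes) and 2 lower (5.26%, against 1.8%). Among the genes called higher were Ttr, whose product carries retinol binding protein in blood, and Adh1, an alcohol dehydrogenase that oxidizes retinol. Ttr read 7.37, 5.97, 8.79 and 9.90 in M + LFD and 11.33, 10.54, 9.41 and 9.54 in M + HFD, a difference of 2.19 ± 0.82 (SE, limma adjusted p = 0.80). Adh1 read 11.86, 12.73, 14.85 and 15.76 in M + LFD and 16.21, 15.89, 15.16 and 15.76 in M + HFD, a difference of 1.96 ± 0.79 (SE, limma adjusted p = 0.80). Both were lowest in M + LFD replicates 1 and 2. The genes called lower were Aldh1a7, a close relative of Aldh1a1 (-0.96 ± 0.33), and Akr1b8, an aldo-keto reductase (-0.70 ± 0.28), each with a limma adjusted p of 0.80, and Akr1b8 was at -0.43 without M + HFD replicate 1. None of the 5 was called without M + LFD replicates 1 and 2, where Ttr gave 0.86 and Adh1 0.45, and 1 other pathway gene was called. Leaving out M + LFD replicate 1 alone left 0 calls, replicate 2 alone 1, M + HFD replicates 1 or 4 alone 2 and M + HFD replicates 2 or 3 alone 3.

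Isx fell outside the calls in males although its means differed most, by -3.10 ± 1.63 (SE, limma adjusted p = 0.82). It read 13.06, 12.92, 9.20 and 8.26 in M + LFD and 3.30, 8.91, 9.75 and 9.07 in M + HFD. The top samples were again M + LFD replicates 1 and 2, and the HFD sample at 3.30 was not well above background. None of the 9 tested receptors and cofactors, among them Rxra and Ncor1, was called in any of the 3 comparisons.

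In females 1 of 41 tested genes was called higher (2.44%, against 0.398% of all genes) and 1 lower (2.44%, against 0.797%). Rbp7, a cellular retinol binding protein gene, read 9.41, 10.08, 9.25 and 9.20 in F + LFD and 10.45, 10.82, 9.52 and 10.28 in F + HFD, a difference of 0.78 ± 0.31 (SE, limma adjusted p = 0.99). Rdh9, from the gene row of Rdh16, read 10.33, 9.91, 9.99 and 10.90 on LFD and 9.40, 9.93, 9.58 and 9.80 on HFD, a difference of -0.61 ± 0.24 (SE, limma adjusted p = 0.99) that was -0.40 without F + LFD replicate 4. The diets overlapped for both genes. With the replicate number as a block, since same-numbered female arrays deviated together, 4 of 41 were called (9.76%, against 2.65% of all genes), namely Rbp7, Rdh9, the retinoic acid binding protein gene Crabp1 (0.87) and Isx (-1.12). Every array but F + LFD replicate 2 changed the unblocked count when left out, to 0 without F + LFD replicates 1 or 4 or F + HFD replicate 1 and to 1 otherwise.

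In OVX females 0 of 37 tested genes were called higher, where 1.18% of all genes were, and 2 were called lower (5.41%, against 1.02%). Aldh1a3, the remaining retinal dehydrogenase, read 9.38, 8.32, 8.32 and 11.15 in F(OVX) + LFD and 7.90, 6.48, 7.26 and 8.52 in F(OVX) + HFD, a difference of -1.76 ± 0.67 (SE, limma adjusted p = 0.9996) that was -1.14 without F(OVX) + LFD replicate 4. Ttr read 10.30, 10.51, 10.17 and 10.60 on LFD and 10.39, 8.84, 8.93 and 9.61 on HFD, a difference of -0.95 ± 0.33 (SE, limma adjusted p = 0.9996), opposite in sign to males. Without F(OVX) + LFD replicates 1 or 4 or F(OVX) + HFD replicates 2 or 3, 1 gene was called. Smooth muscle genes moved with diet in the same samples, with 4 of 7 called higher on HFD (Actg2, Cnn1, Des and Tagln), and their part was not tested. Over all tested genes of the list the median difference was 0.01, -0.05 and -0.02 in males, females and OVX females.

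**Figure D5:**
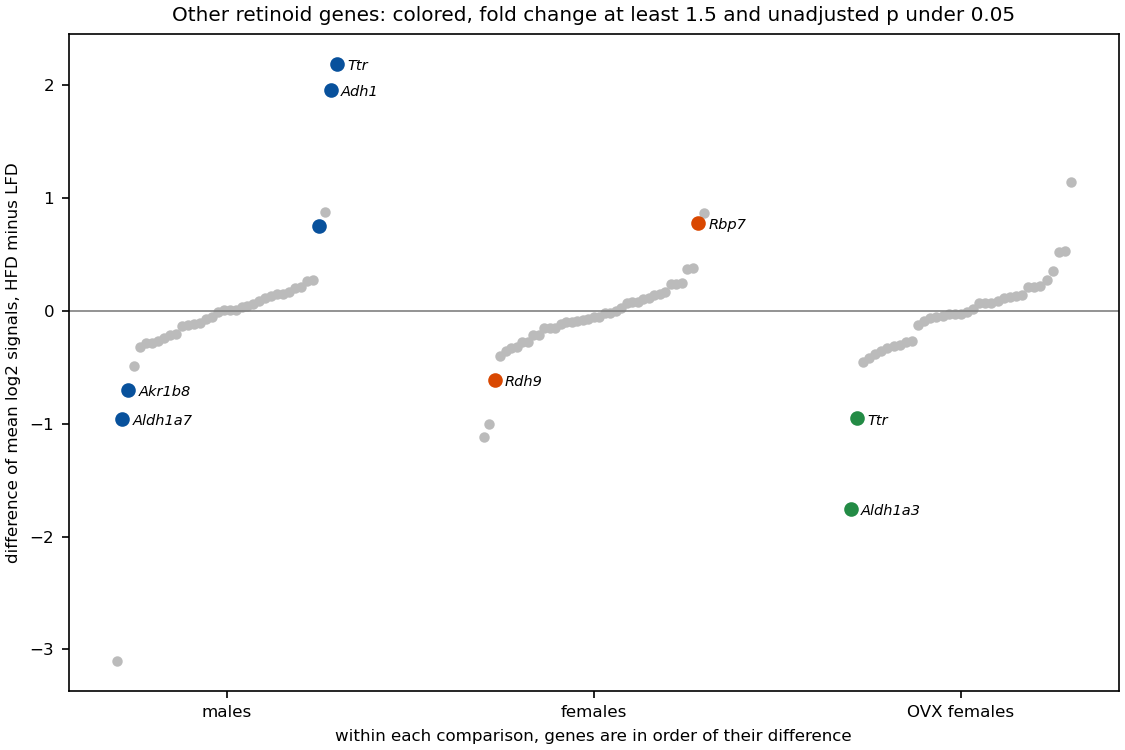
Difference of mean log2 signal, HFD minus LFD (y axis), for the 38, 41 and 37 tested genes of the pathway list in males, females and OVX females (x axis), in order of size, with called genes colored and those described in the text named. Most genes lie near 0, and the lowest gray point in males is Isx at -3.10, which was not called.

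Whether the diet effect itself differed between males, females and OVX females was tested over all 24 arrays, where the comparisons with males share the male arrays. Between males and females 2 of 41 pathway genes differed (4.88%, against 2.95% of all genes), Ttr by 2.04 ± 0.89 and Adh1 by 1.88 ± 0.81 (SE, limma adjusted p = 0.98 each). Between males and OVX females 5 differed (12.2%, against 6.16% of all genes). Ttr differed by 3.15 ± 0.89 and Adh1 by 2.27 ± 0.81, Aldh1a3 by 2.63 ± 1.25, Akr1b8 by -1.22 ± 0.40 and Isx by -4.25 ± 1.87, with limma adjusted p from 0.56 to 0.66. Without M + HFD replicate 1, where Isx was not well above background, its contrast was -2.77, and without M + LFD replicate 1 that of Adh1 between males and females was 1.24. Between OVX females and females 1 differed (2.44%, against 1.52%), the retinol dehydrogenase gene Rdh14, by -0.59 ± 0.24 (SE, limma adjusted p = 0.9998). With the replicate block 4 genes differed between males and females, where 5.14% of all genes did, and 2 between OVX females and females, where 2.45% did. Leaving out M + LFD replicates 1 and 2 left 0 genes for the first of these contrasts and Akr1b8 and Ttr for the second, and leaving out replicate 3 as well left 0 and 0.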

How the data were processed

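Colon RNA was hybridized to 1-color Agilent mouse arrays, and the authors read the spots with Agilent Feature Extraction 11.0.1.1, per the file headers. What they deposited for each array is a linear intensity for every spot, background-subtracted by that software, with its flags for spots above background, saturated (0 spots) or aberrant.

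The 59305 non-control spots of the 62976 on an array, without aberrant ones, were put on the log2 scale, quantile normalized as in the study and averaged per probe. Of 56605 probes, 32994 (58.3%) had a RefSeq symbol in the table for GRCm38.p6, and the brightest probe stood for a gene. The number of arrays limits precision.

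The 9 genes, the pathway list and the marker lists were chosen with earlier results of these data known. Genes named are the 9, pathway genes called in a comparison, the 2 genes most like each of the 9 among those above background on at least 12 arrays, and markers that move with a result. Crabp2 and Rdh16f1 of the pathway list were not matched, and 1 pathway gene is not reported here by name.

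Each diet comparison was fitted on its 8 arrays with limma 3.58.1 in R 4.3.3, and contrasts of diet effects on all 24, with a script tested on simulated data. Beyond numbering, the labels do not say that samples of a group are separate animals, so p-values measure the spread between samples. The numbers were checked for pairing by correlating deviations from group means. Females gave r of 0.28, 0.45, 0.58 and 0.26 for numbers 1 to 4 and were taken as paired. Males gave 0.01, -0.26, 0.00 and -0.03, and OVX females 0.33, -0.09, 0.32 and 0.25, and neither was. The values 0.33, 0.32 and 0.25 of OVX females were close to those of females, so pairing there stays uncertain. The main fits, also that of females, are without the block. Alternatives were the t-test of the methods, 75th percentile scaling, normexp background correction with an offset of 50, no filter, the mean of all probes, the replicate block, a Hox covariate and leaving out arrays. Leaving out several M + LFD arrays together was chosen after seeing the data.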

Additional observations from a re-analysis of the deposited data

Results flagged for a closer look

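Single samples lay far from the other samples of their group in 9 of 114 groups of 4 tested (19 genes in 6 groups), where chance gives about 5%. Rdh16f2 read 2.98 in F(OVX) + LFD replicate 3, the dimmest array, against 6.13 to 6.69. Dhrs3 read 11.63 in F + LFD replicate 4 against 12.16 to 12.19, and 10.98 in F(OVX) + HFD replicate 3 against 11.72 to 11.85. Aldh1a2 read 7.27 in M + LFD replicate 2 against 5.46 to 5.64. Rarb read 4.14 in M + LFD replicate 3 against 5.78 to 6.11, and 7.16 in F + LFD replicate 3 against 5.51 to 5.57. Cyp26b1 read 8.43 in F + HFD replicate 3 against 6.64 to 6.86. Isx read 3.30 in M + HFD replicate 1 against 8.91 to 9.75, and Rdh9 read 9.31 in M + LFD replicate 3 against 10.26 to 10.32.

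The diet effect differed between groups at the thresholds of the study, in a test of the difference itself, for 8 values of 6 pathway genes. The male minus female values were 1.88 for Adh1 and 2.04 for Ttr. Males minus OVX females gave 2.27 for Adh1, -1.22 for Akr1b8, 2.63 for Aldh1a3, -4.25 for Isx and 3.15 for Ttr. OVX females minus females gave -0.59 for Rdh14. None of them passed an adjusted p of 0.05 in limma.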

How the results depend on the processing

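The number of pathway genes called at the thresholds was small and moved with the settings. In males it went from 5 to 1 with the methods' t-test, 3 with no filter, 1 with the Hox covariate, 1 without M + LFD replicates 1 and 2, and 1 without replicate 3 as well. In females it went from 2 to 0 with the methods' t-test, 1 with 75th percentile scaling, 1 with normexp, 1 with the Hox covariate and 4 with the replicate block. In OVX females it went from 2 to 1 with the methods' t-test, 1 with the mean of all probes and 1 with the Hox covariate, which was Akr1b8 (0.69) and neither of the genes called before. Of the contrasts, M - F went from 2 to 4 with the replicate block, and to 0 with the Hox covariate, without M + LFD replicates 1 and 2, or without replicates 1, 2 and 3. M - F(OVX) went from 5 to 0 with the Hox covariate, 2 without M + LFD replicates 1 and 2 and 0 without replicates 1, 2 and 3. F(OVX) - F went from 1 to 2 with the replicate block and 2 with the Hox covariate.

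Leaving out 1 array at a time gave 0 to 6 genes in males, 0 to 2 in females, 1 to 3 in OVX females, 0 to 5 for M - F, 3 to 7 for M - F(OVX) and 0 to 2 for F(OVX) - F. M - F fell to 0 without M + LFD replicates 1 or 2, F + LFD replicate 3 or F + HFD replicate 1, and to 1 without M + HFD replicate 1 or F + LFD replicate 4. It rose to 5 without M + LFD replicate 4 or F + LFD replicate 2, and to 4 without F + HFD replicate 3 or F(OVX) + LFD replicate 3. M - F(OVX) fell to 3 without M + LFD replicates 1 or 2, M + HFD replicate 1 or F(OVX) + HFD replicates 2 or 3. F(OVX) - F fell to 0 without F + LFD replicate 4, F + HFD replicates 1 or 2, F(OVX) + LFD replicates 2 or 3 or F(OVX) + HFD replicates 2 or 4, and rose to 2 without replicate 3 of F + HFD or of F(OVX) + HFD, or replicate 2 of F + LFD.

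Of the 27 differences of the 9 genes between diets, 17 took the other sign under at least 1 alternative, in 45 of 369 values. Dhrs3 in males was at 0.24 with the Hox covariate, Aldh1a1 in females at 0.14 without F + LFD replicate 1, and Rdh16f2 in females at 0.38 without F + HFD replicate 4. The Hox covariate also turned Rbp2 and Rara in OVX females, to 0.55 and 0.28. The male difference of Rbp2 was -0.29 without M + LFD replicate 3, and ran up to 1.44 without other single arrays. Without M + LFD replicates 1, 2 and 3, Adh1 was at -0.00176 in males and at -0.0784 for M - F. With the Hox covariate, Isx was at 0.11 for M - F(OVX). The replicate block left M - F(OVX) at 6 genes against 5. In males and OVX females, whose numbers were not taken as paired, it moved neither count by over 1.5 times. The causes of these moves were not tested. Dim probes, those of Rarb, Aldh1a2, Rdh16f2 and Rbp2 among the 9 genes, carry the least signal over background.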
